A study of Mus musculus with 18 samples.

Results

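*Nphs1*, *Magi2*, *Podxl*, *Ptpro*, *Synpo*, *Plce1*, *Wt1* and *Cdkn1c* are genes of the podocyte, the epithelial cell that covers the glomerular capillaries. They were taken by name, as 8 of the 45706 genes counted in whole kidneys of mice whose tubules had lost *Cxcl12* or *Myc*. The labels name the gene excision as tubule-specific, so that the podocyte lies outside the targeted cells. Every kidney came from a C57BL/6 mouse whose renal blood flow had been interrupted on both sides for 22.5 min, and it was taken 12 h after reperfusion. The mice were homozygous for floxed alleles (F/F) of *Cxcl12* or of *Myc* and carried Pax8rtTA, a doxycycline-dependent transcriptional activator under the *Pax8* promoter. KO mice had TetOcre in addition, the recombinase that this activator switches on, and control mice lacked it. The *Cxcl12* cohort comprised 5 KO and 3 control kidneys, and the *Myc* cohort 5 of each. According to the methods of the study, all animals were adult male littermates, and KO and control mice alike received doxycycline in the drinking water followed by a washout. Both kinds of kidney were injured and no uninjured kidney was analysed here, so that all comparisons below are between genotypes after injury.

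Podocytes send out interlocking foot processes, and the gaps between these processes are bridged by the slit diaphragm, the last barrier of the glomerular filter. The foot processes are held by an actin cytoskeleton, carry a negatively charged coat on their free surface and rest on the glomerular basement membrane. Podocytes hardly divide after birth, and loss of podocytes or flattening of their foot processes leads to protein in the urine. Ischemia and reperfusion injure mainly the tubule, above all the proximal tubule.

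The kidneys were sequenced to between 12918220 and 29749500 reads on genes, and the 8 genes were covered by 95 reads (*Magi2*, lowest kidney) to 13222 reads (*Podxl*, highest kidney). Levels are given as CPM, which are counts per 1000000 reads of the library size after TMM normalization. Genotypes were compared within each cohort by the quasi-likelihood test of edgeR, with p-values adjusted by the Benjamini-Hochberg method over all genes tested. A gene was called where the adjusted p was under 0.05. *Cxcl12* was present at 28.7, 36.3, 29.2, 26.3 and 40.9 CPM in the *Cxcl12* KO kidneys and at 55.1, 60.5 and 44.9 CPM in their controls, which is a log2 fold change of -0.73 (standard error 0.15, adjusted p = 0.094). *Myc* was present at 37.0, 29.2, 29.7, 26.6 and 32.4 CPM in the *Myc* KO kidneys and at 117, 92.7, 85.9, 98.8 and 79.7 CPM in their controls (log2 fold change -1.61, standard error 0.12, adjusted p = 8.8e-05). Every KO kidney thus lay below every control kidney for the gene excised in it. The share of unmapped reads was under 5% in 6 kidneys, which were sequenced more deeply than the other 12. They comprised *Cxcl12* KO 1 and 2, *Myc* KO 3 and 5 and *Myc* control 1 and 3 but no *Cxcl12* control, and neither the labels nor the methods say which kidneys formed a batch.

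All 8 genes are protein-coding, and the coordinates given here (for all but *Synpo*) are those of GENCODE vM21 on GRCm38 for the whole gene from first to last exon. *Nphs1* (ENSMUSG00000006649, chr7:30458315-30487223, plus strand) encodes nephrin, the adhesion protein that spans the slit, and *Magi2* (ENSMUSG00000040003, chr5:19227036-20704792, plus strand) encodes a scaffold protein at its base. *Podxl* (ENSMUSG00000025608, chr6:31519488-31563981, minus strand) encodes podocalyxin, the main sialoprotein of the surface coat, and *Ptpro* (ENSMUSG00000030223, chr6:137252319-137463233, plus strand) encodes a receptor tyrosine phosphatase of the apical membrane. *Synpo* (ENSMUSG00000043079, minus strand) encodes synaptopodin, an actin-binding protein of the foot processes, and *Plce1* (ENSMUSG00000024998, chr19:38481109-38785030, plus strand) encodes the signalling enzyme phospholipase C epsilon. *Wt1* (ENSMUSG00000016458, chr2:105126529-105173616, plus strand) encodes the zinc finger transcription factor that podocytes keep throughout life. *Cdkn1c* (ENSMUSG00000037664, chr7:143458339-143461050, minus strand) encodes p57, an imprinted inhibitor of cyclin-dependent kinases. *Podxl* is also made by endothelial cells and *Wt1* by parietal epithelial cells, so that whole-kidney reads of these genes need not all come from podocytes. How far the reads of the other genes come from podocytes was not examined either. The library was not stranded, since either strand alone gave 51.8% to 52.8% of the reads counted without regard to strand. Reads in exons shared with an antisense gene therefore cannot be told apart by strand. How such reads entered the counts was not examined. *Nphs1* shares 597 exon bases (9.0% of its exon length) with the antisense gene *Nphs1os*, for which at most 3 reads were counted in a kidney. That count need not include reads in the shared bases. *Cdkn1c* shares 625 exon bases (30.7% of its exon length) with the antisense gene *Gm44732*, for which no count was analysed here.

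Because *Wt1* is itself one of the 8 genes and its protein binds promoters of podocyte genes, the promoters were searched for a WT1-type motif. RefSeq promoters on GRCm38.p6, each from 250 bases before to 50 bases after a transcript start, were held for 4 of the 8 genes, namely *Nphs1*, *Magi2*, *Ptpro* and *Plce1*. *Podxl*, *Synpo*, *Wt1* and *Cdkn1c* had no entry. The WT1-type motif was GCGTGGGNG, searched on both strands, and its letters overlap with those bound by EGR-family zinc finger proteins. It occurred in the promoter at the first start of *Magi2* and in none of the other 4 promoters of these genes, one of which is a second *Magi2* promoter, while 1.896% of 32851 promoters held it. The E-box CACGTG, the letters that MYC prefers, occurred in none of the 5 promoters and in 7.15% of all promoters. A match is only a description of the letters and does not show binding. The promoter with the match and that of *Ptpro* are printed to show how unlike they are, with the reverse complement of the motif in capitals. The first lies at chr5:19226796-19227095 and has 69.3% G or C and 29 CpG dinucleotides, and the second lies at chr6:137252049-137252348 and has 54.7% and 5. Both genes are on the plus strand.
Magi2: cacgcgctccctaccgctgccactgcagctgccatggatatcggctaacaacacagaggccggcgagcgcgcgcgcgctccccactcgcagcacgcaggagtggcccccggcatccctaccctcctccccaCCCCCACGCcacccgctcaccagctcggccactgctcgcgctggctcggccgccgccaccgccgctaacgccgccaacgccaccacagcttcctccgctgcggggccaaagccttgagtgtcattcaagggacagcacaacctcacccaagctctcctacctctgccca
Ptpro: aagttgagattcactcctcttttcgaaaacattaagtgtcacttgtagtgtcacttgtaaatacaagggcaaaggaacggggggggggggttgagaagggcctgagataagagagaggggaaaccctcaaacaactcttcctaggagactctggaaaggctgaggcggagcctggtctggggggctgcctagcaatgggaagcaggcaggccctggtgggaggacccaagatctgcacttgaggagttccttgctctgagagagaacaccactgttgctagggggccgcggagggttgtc

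Compared per length of merged exons, the 8 genes spanned a wide range of levels. Over all 18 kidneys the mean level was 70.8 ± 14.3 CPM per kilobase (SD) for *Podxl*, 34.1 ± 12.7 for *Cdkn1c* and 17.3 ± 3.6 for *Synpo*. *Nphs1* followed with 4.14 ± 0.66, *Ptpro* with 3.91 ± 0.80 and *Wt1* with 2.27 ± 0.37 CPM per kilobase. *Plce1* had 1.32 ± 0.26 and *Magi2* 0.92 ± 0.15 CPM per kilobase. The order was the same in all 18 kidneys for *Podxl* over *Cdkn1c*, *Cdkn1c* over *Synpo*, *Synpo* over *Nphs1*, *Ptpro* over *Wt1* and *Wt1* over *Plce1*. *Nphs1* exceeded *Ptpro* in only 10 of 18 kidneys, so that these 2 genes had no constant order, and *Plce1* exceeded *Magi2* in 16 of 18. The order between genes depends on the length of all annotated exons, from 2039 bases (*Cdkn1c*) to 15998 bases (*Plce1*). Before division by length, *Plce1* had a mean of 21.1 CPM and *Wt1* one of 14.0 CPM, the reverse of their order per kilobase. Between the lowest and the highest kidney, *Cdkn1c* varied 3.14-fold, while the other 7 genes varied between 1.67-fold (*Magi2*) and 2.25-fold (*Synpo*). Within a genotype group the standard deviation of log2 CPM was 0.45 for *Cdkn1c*, 0.32 for *Ptpro* and between 0.19 and 0.25 for the other 6 genes, against a median of 0.22 over all tested genes.

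**Figure D1:**
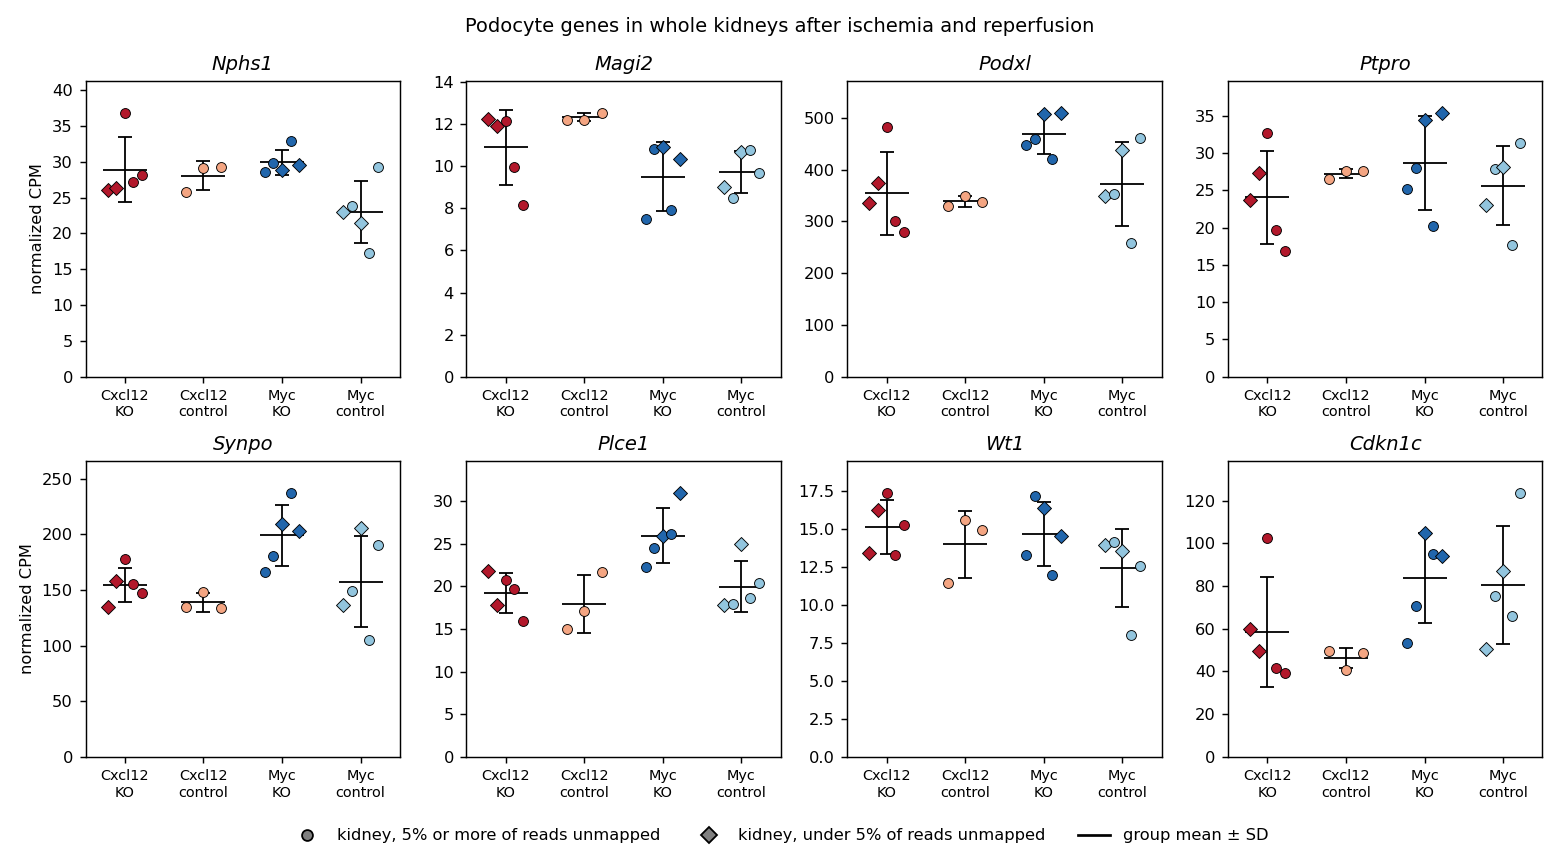
Normalized CPM (vertical axes, each from 0) of the 8 podocyte genes in 18 whole kidneys by genotype group. Each point is a kidney, diamonds mark the 6 kidneys with under 5% of reads unmapped, and bars give the group mean and SD. All 5 *Myc* KO kidneys lay above the mean of the *Myc* controls for *Nphs1*, *Podxl*, *Synpo* and *Plce1*, and KO and control kidneys of the same cohort overlapped for every gene.

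When the 4 genotype groups were ordered by their mean, *Myc* KO kidneys had the highest mean for 6 of the 8 genes, *Cxcl12* KO kidneys for *Wt1* and *Cxcl12* control kidneys for *Magi2*. The ranges of groups next to each other in this order overlapped in 24 of 24 cases. No neighbours in this order were thus separated kidney by kidney. Overlap of ranges does not test a difference between means, for which the fits below are given.

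Excision of *Cxcl12* in the tubule was compared first. Of 15154 genes tested in this cohort, 0 (0%) were called, although 1976 (13%) had an unadjusted p under 0.05. DESeq2 called 355 genes and limma voom 0. None of the 8 podocyte genes was called by edgeR, DESeq2 or limma voom, and 0 had an unadjusted p under 0.05 in edgeR. Their log2 fold changes lay between -0.18 and 0.33 with a median of 0.08, and 6 of the 8 were above 0 beside 50.2% of all genes tested. No member separated the groups, whereas 4.96% of all genes had every KO kidney above every control kidney and 4.72% had every KO kidney below. Fewer podocytes and less RNA per podocyte cannot be told apart in whole kidneys.

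Among the slit diaphragm genes, *Nphs1* was at 26.0, 26.3, 36.9, 27.1 and 28.2 CPM in *Cxcl12* KO kidneys and at 25.8, 29.1 and 29.4 CPM in the controls. The KO kidneys lay among the controls apart from the third, which was higher than all others. The log2 fold change was 0.03 (95% interval -0.24 to 0.31, adjusted p = 0.94). *Magi2* was at 12.3, 11.9, 12.1, 9.99 and 8.19 CPM against 12.2, 12.2 and 12.6 CPM. The controls were nearly equal and all 5 KO kidneys lay below their mean, but the fourth and the fifth KO kidney made up most of the difference (log2 fold change -0.18, 95% interval -0.50 to 0.14, adjusted p = 0.63).

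The surface genes showed the same spread within the KO group. *Podxl* was at 336, 375, 482, 300.3 and 279 CPM in *Cxcl12* KO and at 329, 349.9 and 337 CPM in control kidneys (log2 fold change 0.06, 95% interval -0.29 to 0.42, adjusted p = 0.90). *Ptpro* was at 23.7, 27.4, 32.7, 19.6 and 16.9 CPM against 26.6, 27.6 and 27.6 CPM (log2 fold change -0.18, 95% interval -0.58 to 0.21, adjusted p = 0.69). For both genes the third KO kidney was the highest of all 8 kidneys and the fifth the lowest, and the 3 controls lay between them.

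The cytoskeletal, signalling and nuclear genes did not separate the genotypes either. *Synpo* ranged from 135 to 177 CPM in KO and from 133 to 149 CPM in control kidneys, and its log2 fold change of 0.15 had the narrowest interval of the 8 genes (95% interval -0.07 to 0.37, adjusted p = 0.54). *Plce1* ranged from 15.9 to 21.7 against 15.0 to 21.6 CPM (log2 fold change 0.10, 95% interval -0.22 to 0.41), and *Wt1* from 13.3 to 17.3 against 11.4 to 15.6 CPM (log2 fold change 0.11, 95% interval -0.20 to 0.41). *Cdkn1c* was at 59.7, 49.4, 102, 41.5 and 39.3 CPM against 49.7, 40.9 and 48.6 CPM. The third KO kidney was again the highest, and the interval of *Cdkn1c* was the widest (log2 fold change 0.33, 95% interval -0.28 to 0.93, adjusted p = 0.64). Without this kidney the log2 fold change of *Cdkn1c* was 0.03, that of *Podxl* -0.08 and that of *Nphs1* -0.07. A change of 1 on the log2 scale in either direction lay outside the interval of every one of the 8 genes.

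Excision of *Myc* was compared next. In this cohort 246 of 14936 genes (1.65%) were called by edgeR, and 3268 (21.9%) had an unadjusted p under 0.05. Of the 8 podocyte genes 0 were called, while *Nphs1*, *Plce1* and *Podxl* had an unadjusted p under 0.05, all with the higher mean in KO kidneys, a direction that 10.6% of all genes had with such a p. DESeq2 called 1139 of the 14936 genes, many more than edgeR, and among them *Nphs1* and *Plce1* (adjusted p = 0.038 and 0.041). limma voom called 0 of the 8. The log2 fold change was above 0 for 7 of the 8 genes beside 49.9% of all genes tested, with a median of 0.29 against 0.00 for all genes. These genes varied together between kidneys, as described below, so that their directions are not independent of each other. The range of the KO kidneys overlapped with that of the controls for every member, whereas 2.05% of all genes had every KO kidney above and 3.92% every KO kidney below the controls.

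*Nphs1* was at 28.6, 29.9, 28.9, 33.0 and 29.5 CPM in *Myc* KO kidneys and at 23.0, 23.8, 21.5, 17.3 and 29.2 CPM in the controls. The KO kidneys lay close together, and only the fifth control reached into their range. This was a 1.31-fold higher level (95% interval 1.09 to 1.56) and a log2 fold change of 0.38 (standard error 0.12, adjusted p = 0.11). *Magi2*, the other slit diaphragm gene, was at 7.51, 10.8, 10.9, 7.95 and 10.4 CPM against 9.02, 8.52, 10.7, 10.8 and 9.67 CPM. Its KO kidneys spanned the whole range of the controls, and the log2 fold change was -0.03 (95% interval -0.31 to 0.26, adjusted p = 0.93).

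*Podxl* was at 448, 458, 507, 419.8 and 509.9 CPM in *Myc* KO kidneys and at 349.7, 352, 438, 259 and 461 CPM in the controls. The KO kidneys lay above the control mean in 5 of 5 cases, but the third and the fifth control were as high as KO kidneys (1.26-fold, 95% interval 1.02 to 1.56, log2 fold change 0.34, adjusted p = 0.19). *Ptpro* was at 25.2, 27.9, 34.4, 20.2 and 35.4 CPM against 23.0, 27.9, 28.1, 17.7 and 31.3 CPM. Its groups overlapped almost completely (log2 fold change 0.17, 95% interval -0.21 to 0.55, adjusted p = 0.60).

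*Synpo* was at 166, 180.3, 209, 237 and 203 CPM in *Myc* KO kidneys and at 136, 149, 206, 105 and 191 CPM in the controls. Again 5 of 5 KO kidneys lay above the control mean, and again the third and the fifth control lay among them (1.27-fold, 95% interval 0.99 to 1.62, log2 fold change 0.34, adjusted p = 0.25). *Plce1* was at 22.2, 24.4, 25.8, 26.1 and 30.9 CPM against 17.8, 17.9, 24.9, 18.7 and 20.3 CPM. Only the third control overlapped with the KO kidneys (1.30-fold, 95% interval 1.09 to 1.55, log2 fold change 0.38, standard error 0.12, adjusted p = 0.11). Without this control *Plce1* was called with a log2 fold change of 0.48 (adjusted p = 0.027), as 1 of 877 genes called among 15108 tested.

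*Wt1* was at 13.3, 17.1, 16.4, 12.0 and 14.5 CPM in *Myc* KO kidneys and at 13.9, 14.2, 13.5, 8.01 and 12.5 CPM in the controls. The fourth control was lower than all other kidneys of the series (log2 fold change 0.24, 95% interval -0.10 to 0.58, adjusted p = 0.39). *Cdkn1c* was at 53.4, 70.9, 105, 95.0 and 94.0 CPM against 50.4, 75.4, 87.1, 65.9 and 124 CPM. Its 2 groups covered nearly the same range (log2 fold change 0.06, 95% interval -0.44 to 0.56, adjusted p = 0.90).

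Differences of the *Myc* cohort were also taken among the 6 kidneys outside the deeply sequenced ones (3 per genotype) and among the 4 within them (2 per genotype), as differences of mean log2 CPM. For *Nphs1* these were 0.41 and 0.39, for *Podxl* 0.35 and 0.38, for *Plce1* 0.35 and 0.42, for *Synpo* 0.42 and 0.30 and for *Wt1* 0.31 and 0.17, so that these 5 genes differed in the same direction in both. *Ptpro* differed by -0.04 outside and 0.45 within, *Cdkn1c* by -0.26 and 0.58, and *Magi2* by -0.15 and 0.12. The 3 genes thus had opposite directions in the 2 sets of kidneys. In the *Cxcl12* cohort no control was deeply sequenced, and among the other 6 kidneys the differences were -0.30 for *Magi2*, -0.30 for *Ptpro*, 0.20 for *Synpo*, 0.25 for *Cdkn1c* and between 0.02 and 0.13 for the remaining 4 genes.

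**Figure D2:**
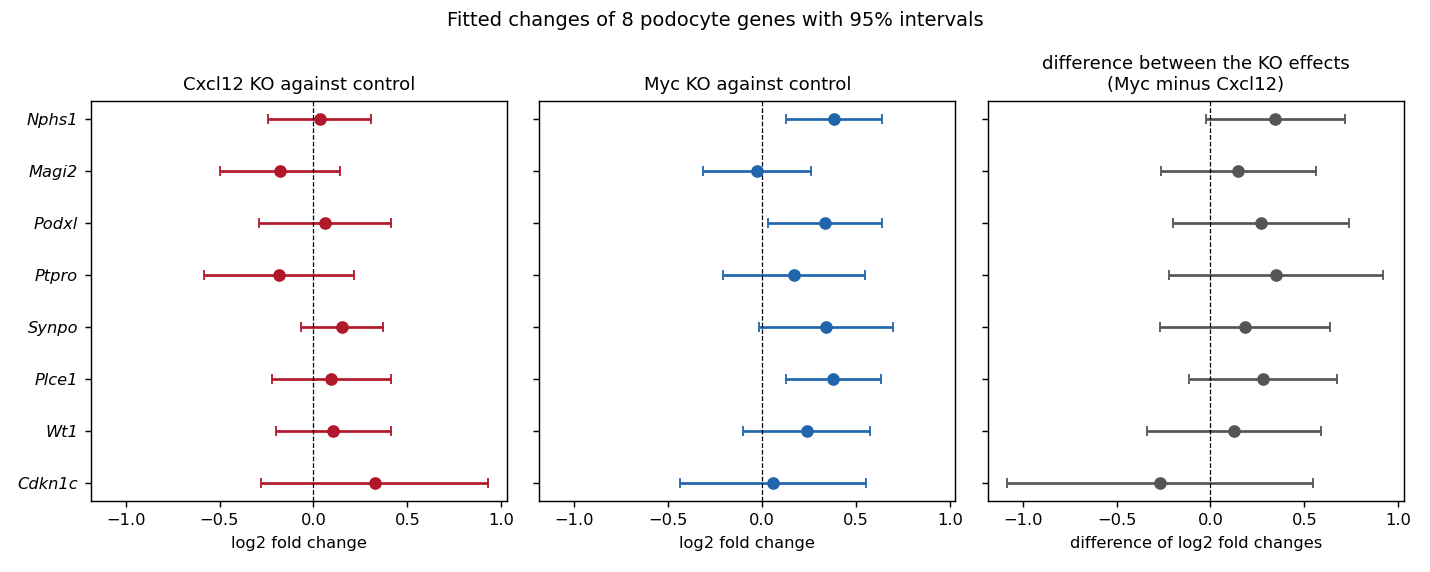
Log2 fold changes (horizontal axis) of the 8 genes in *Cxcl12* KO and *Myc* KO kidneys against their own controls and the difference between both, as fitted by edgeR. Points are estimates and bars 95% intervals, which lay wholly above 0 only for *Nphs1*, *Podxl* and *Plce1* in the *Myc* cohort.

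Whether the 2 excisions acted differently on these genes was tested in a fit over all 18 kidneys. Of 15903 genes, 11 (0.0692%) were called for this difference and 11.4% had an unadjusted p under 0.05. None of the 8 podocyte genes was called and 0 had an unadjusted p under 0.05 in edgeR, and DESeq2 and limma voom called none of them. The largest differences of log2 fold changes (*Myc* minus *Cxcl12*) were 0.35 for *Ptpro* (95% interval -0.22 to 0.92) and 0.35 for *Nphs1* (95% interval -0.03 to 0.72, adjusted p = 0.48). *Plce1* followed with 0.28 and *Podxl* with 0.27, and *Cdkn1c* had the only negative value with -0.27 (95% interval -1.08 to 0.55). The larger values of the *Myc* cohort are therefore not shown to differ from those of the *Cxcl12* cohort.

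The controls of both cohorts were compared in the same fit, where cross, handling and any unlabelled batch cannot be told apart. Between *Cxcl12* control and *Myc* control kidneys 316 genes (1.99%) were called and 17.7% had an unadjusted p under 0.05. Of the podocyte genes 0 were called by edgeR, DESeq2 or limma voom, while *Cdkn1c*, *Magi2* and *Nphs1* had an unadjusted p under 0.05 in edgeR. *Cdkn1c* was lower in all 3 *Cxcl12* controls than in any of the 5 *Myc* controls (46.4 ± 4.8 against 80.5 ± 27.6 CPM, SD, log2 difference -0.79, standard error 0.30, adjusted p = 0.17). *Magi2* was higher in all 3 *Cxcl12* controls than in any *Myc* control (12.3 ± 0.2 against 9.74 ± 1.00 CPM, SD, log2 difference 0.34, adjusted p = 0.24). Such separation was found for 5.88% of all genes with the *Cxcl12* controls above and for 6.23% with them below. The differences between the control groups were thus as large as or larger than those between KO and control kidneys for these 2 genes.

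Kidneys of the same group also differed from each other, some of them in many of the 8 genes together. Each kidney's log2 CPM was taken relative to the mean of its own group. In the third *Cxcl12* KO kidney 8 of 8 genes lay above the group mean, on average by 0.37, and 6 of the 8 had their highest value of the group there. The fifth *Cxcl12* KO kidney had 1 gene above the mean and an average deviation of -0.25. Among *Myc* controls the fourth kidney had an average deviation of -0.33, with the lowest value of the group for 5 genes, and the fifth one of 0.26, with the highest value for 4. Among *Myc* KO kidneys the first had 0 genes above the mean (-0.22). The *Cxcl12* controls stayed between -0.08 and 0.06.

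**Figure D3:**
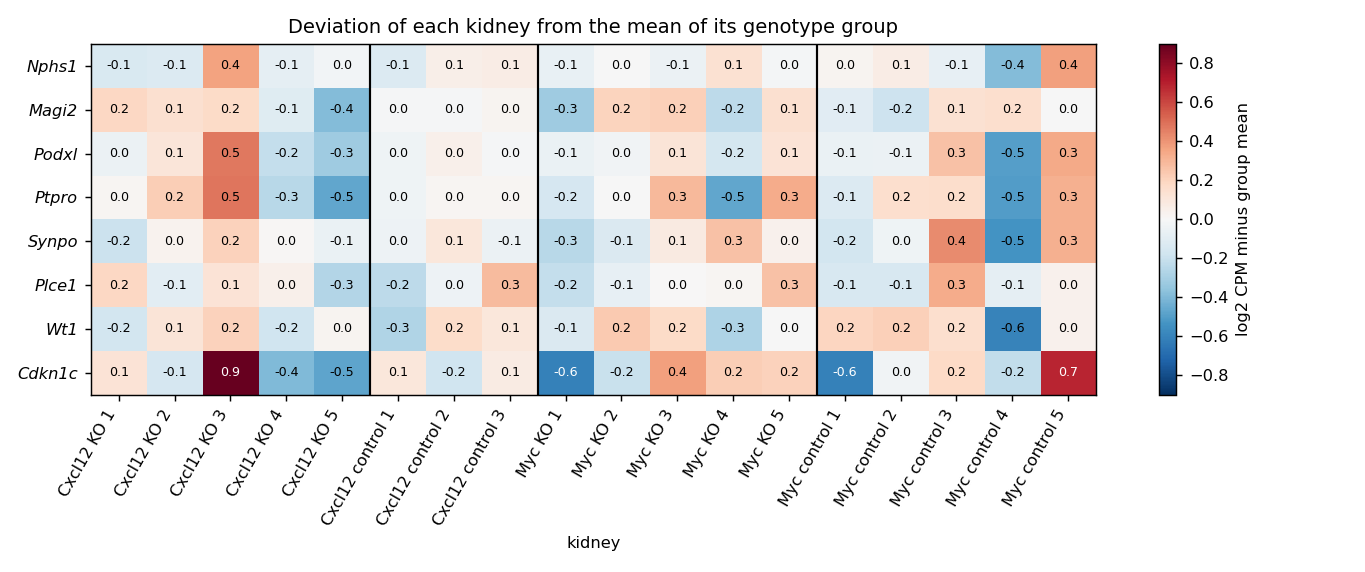
Log2 CPM of each podocyte gene in each kidney minus the mean of its genotype group (colour and printed value), with vertical lines between the 4 groups. *Cxcl12* KO 3 is above its group mean in all 8 genes, and *Myc* control 4 is below it in 7 of 8.

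These deviations were related between the genes over the 18 kidneys. They share one library and one depth per kidney, so that the correlations are descriptions only. *Podxl* followed the mean of the other 7 genes most closely (Pearson r = 0.92), ahead of *Ptpro* (0.83), *Cdkn1c* (0.72), *Synpo* (0.67) and *Nphs1* (0.61). *Plce1* (0.53), *Wt1* (0.49) and *Magi2* (0.43) followed less closely. Of the 28 pairs of genes 27 had a positive r, with a median of 0.51. The closest pair was *Podxl* and *Ptpro* (r = 0.90), both of the apical membrane, and the only negative pair was *Nphs1* and *Magi2* (r = -0.13), both of the slit diaphragm. The mean deviation of the 8 genes had an r of 0.20 with the log2 number of reads and of -0.16 with the percentage of unmapped reads.

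The genes whose deviations were most like the mean of the 8 were then sought among 13760 other genes with a mean of at least 1 CPM. The 10 closest were *Ptger4* (r = 0.94), *Cdh3* (0.93), *Hpcal4* (0.93), *Sgsm1* (0.92), *Ly6c1* (0.91), *Boc* (0.91), *Mboat1* (0.90), *Mal* (0.90), *Slc44a2* (0.90) and *Nell2* (0.89). None of them was on a list of podocyte or other marker genes used here, which do not hold every gene described in podocytes, and *Mal* is known as a protein of the distal nephron and collecting duct. Of 47 other genes on the podocyte lists that could be ranked, 1 was among the closest 100 (*Pla2r1*, rank 42) and 14 among the closest 1000. Their median r was 0.46 against -0.03 for all ranked genes.

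Marker lists of other cell types were set beside the podocyte genes in the same way, each as the mean of its genes. The r with the 8 genes was 0.87 for 6 parietal epithelial, 0.87 for 9 glomerular endothelial and 0.75 for 7 mesangial cell markers. It was 0.55 for 6 markers of the loop, distal tubule and collecting duct, 0.49 for 7 leukocyte markers, -0.13 for 6 tubular injury markers and -0.59 for 9 proximal tubule markers. The injury markers went both ways, and 3 of the 6 had a positive r. Their single values ran from -0.68 for *Havcr1* to 0.86 for *Clu*, which ranked 30 among the 13760 genes. Kidneys in which podocyte genes were high thus tended to have high values of the 3 lists named after other glomerular cells and low values of proximal tubule genes. Whole-kidney reads of these markers need not come from the glomerulus. *Akap12* of the parietal list had a mean of 535 CPM over all kidneys, above the 388 CPM of *Podxl*. CPM values are relative to the reads of the same kidney, so that a higher share of some genes lowers that of others. How far this ties the lists to each other was not tested. Among the 12 kidneys that were not deeply sequenced, the values were between 0.69 and 0.87 for the 3 glomerular lists and -0.55 for the proximal tubule list.

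**Figure D4:**
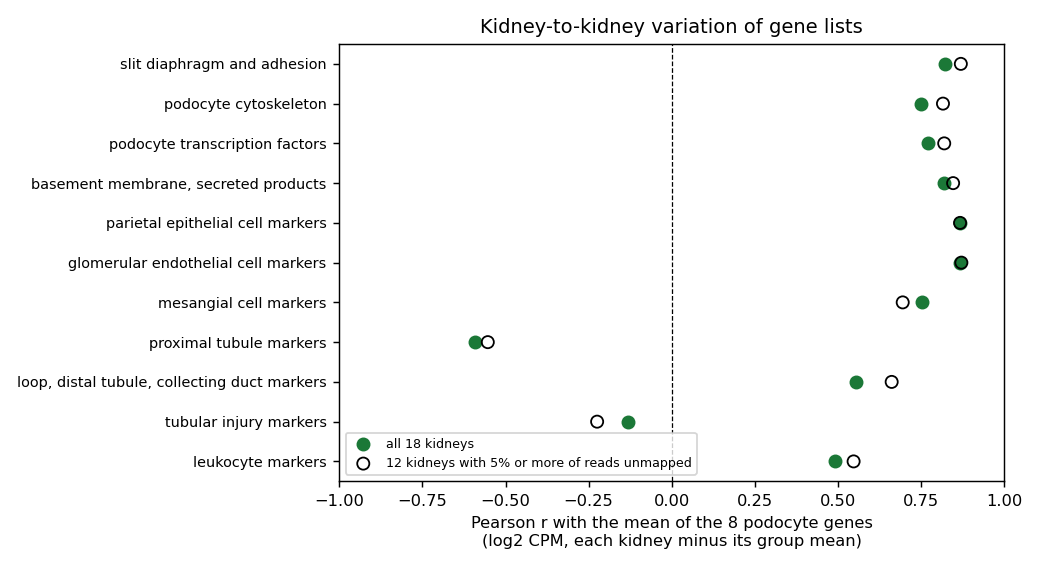
Pearson r (horizontal axis) over kidneys between the mean deviation of the 8 podocyte genes and that of each marker list, for all 18 kidneys (filled) and for the 12 kidneys that were not deeply sequenced (open). The lists of podocytes and other glomerular cells lie between 0.69 and 0.87 and the proximal tubule list lies below 0.

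Further genes known for a role in podocytes were described by 4 lists of 49 genes. Some of them are widely expressed, such as *Myh9* with a mean of 1315 CPM and *Actn4* with 624 CPM over all kidneys, so that their whole-kidney reads cannot be taken as reads of podocytes. The summed levels of 3 of these lists overlapped between KO and control kidneys in both cohorts. That of the basement membrane and secreted products did so in the *Myc* cohort but not in the *Cxcl12* cohort (2164 to 2537 CPM in KO against 2553 to 2651 CPM in control kidneys). Every KO kidney lay below every control kidney for 4.72% of all genes tested in the latter cohort. In the *Cxcl12* cohort 0 of 48 tested genes were called and 23 had a log2 fold change above 0 (47.9%, beside 50.2% of all genes tested). The largest change on the cytoskeletal list was that of *Arhgap24*, a Rac-inactivating protein (log2 fold change -0.56, standard error 0.12, adjusted p = 0.097). In *Myc* kidneys 1 of 48 genes was called (2.08%, near the 1.65% of all genes tested) and 39 had a log2 fold change above 0 (81.2%, beside 49.9% of all genes). The called gene was *Fgf1*, a growth factor (log2 fold change 0.45, standard error 0.09, adjusted p = 0.034), which lay at -0.20 in the *Cxcl12* cohort (adjusted p = 0.47), and the difference between both missed the threshold (adjusted p = 0.068). Between the control groups *Fgf1* was called as well, 0.42 higher on the log2 scale in *Cxcl12* than in *Myc* controls (adjusted p = 0.0496), a difference about as large as its change in the *Myc* cohort. The other gene of these lists called between the controls was *Ildr2*, of the slit diaphragm and adhesion list, named after its values were seen (log2 difference 0.57, adjusted p = 0.027).

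By role, and again to be read beside 49.9% (*Myc* cohort) and 50.2% (*Cxcl12* cohort) of all genes above 0, 12 of 12 tested genes of the slit diaphragm and adhesion list had a log2 fold change above 0 in the *Myc* cohort, with a median of 0.19, against 8 of 12 and 0.08 in the *Cxcl12* cohort. The largest value on this list was that of *Pla2r1*, a phospholipase A2 receptor (0.53 in the *Myc* cohort, adjusted p = 0.16). Whether its reads in mouse kidneys come from podocytes at all was not examined. For the cytoskeletal genes the numbers were 9 of 14 (median 0.17) in the *Myc* and 7 of 14 (median 0.00) in the *Cxcl12* cohort. Transcription factors had 7 of 7 (median 0.19) and 4 of 7 (median 0.03), with the largest value for *Lmx1b* (0.38, adjusted p = 0.37, in the *Myc* cohort). Basement membrane and secreted products had 11 of 15 (median 0.28) and 4 of 15 (median -0.13). The means of these 4 lists varied over the kidneys with that of the 8 genes (r between 0.75 and 0.82). Their genes are thus not independent of each other, and the counts above 0 are descriptions without a test. *Myc* control 4 had the lowest sum of its group for each of the 4 lists.

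**Figure D5:**
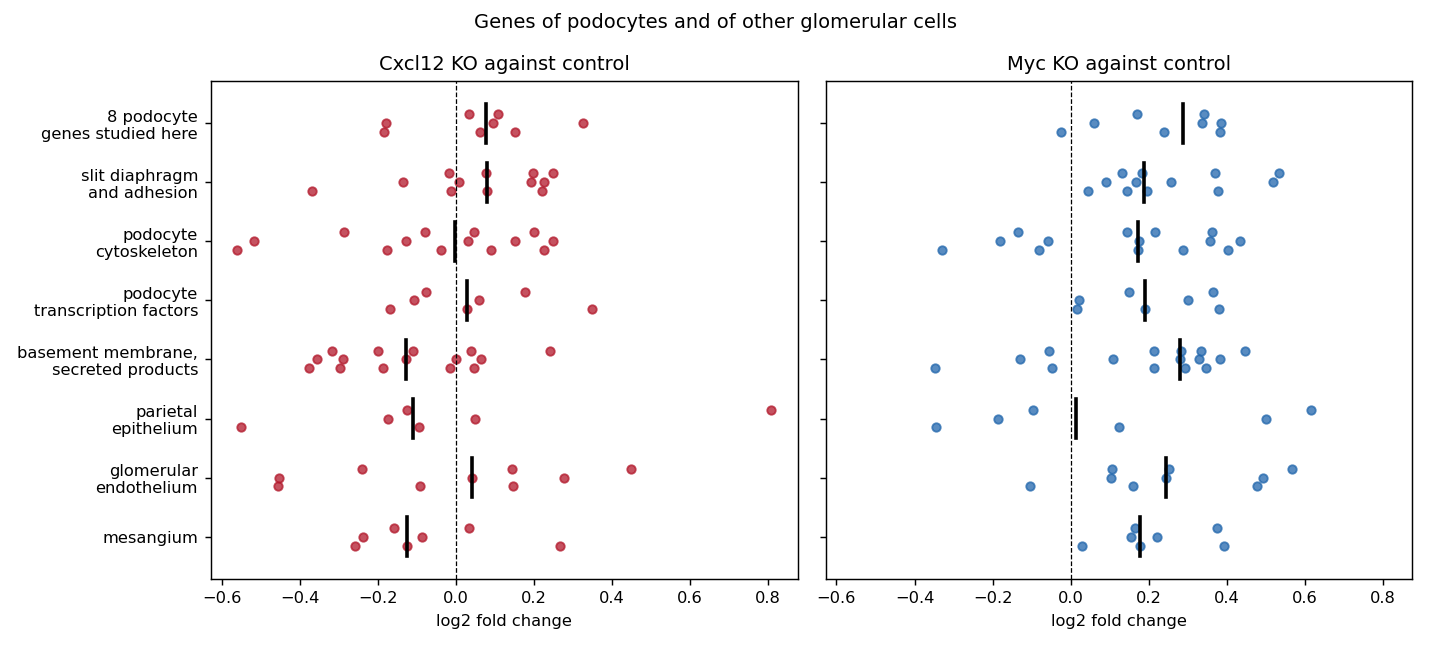
Log2 fold changes (horizontal axis) of single genes (points) and their medians (black bars) for the 8 podocyte genes, 4 further lists of podocyte genes and 3 lists of other glomerular cells. In the *Myc* cohort the medians of all 8 rows are above 0, the parietal list being nearest to it, and in the *Cxcl12* cohort they lie on both sides.

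Markers of other cell types were taken beside the podocyte genes, and their part in the podocyte values was not tested. Whole-kidney reads of these markers need not come from the cell type they are listed under. Genes of a list are again not independent counts. None of the listed markers was at 0 in all kidneys. In the *Myc* cohort 8 of 9 glomerular endothelial markers (median log2 fold change 0.24) and 7 of 7 mesangial markers (0.18) were above 0, and 3 of 6 parietal markers (0.01). The summed level of the endothelial markers was 1559 to 1793 CPM in *Myc* KO and 1149 to 1564 CPM in *Myc* control kidneys, that of the mesangial markers 375 to 508 against 302 to 509 CPM, and that of the parietal markers 766 to 1134 against 493 to 1014 CPM. The sum of the 8 podocyte genes was 764 to 937 against 502 to 879 CPM. None of these markers was called, the largest values being 0.57 for *Cdh5*, the endothelial cadherin (adjusted p = 0.12), 0.39 for the mesangial *Serpine2* (adjusted p = 0.35) and 0.62 for the parietal *Akap12* (adjusted p = 0.15). In the *Cxcl12* cohort 5 of 9 endothelial (median 0.04), 2 of 7 mesangial (-0.13) and 2 of 6 parietal markers (-0.11) were above 0 and 0 were called. *Akap12*, at 0.81 (adjusted p = 0.090), was the largest of them, and the parietal sum was 653 to 896 CPM in KO and 518 to 551 CPM in control kidneys. This separation lay in *Akap12*, whose mean was 539 CPM in KO and 307 CPM in control kidneys, against means of 745 and 532 CPM for the whole sum, while 4 of the 6 parietal markers had a log2 fold change below 0. Every KO kidney lay above every control kidney for 4.96% of all genes tested in this cohort.

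Tubular and leukocyte markers were taken as well. Among them, 7 of 9 proximal tubule markers (median 0.11), 4 of 6 markers of the later nephron (0.10), 3 of 6 tubular injury markers (0.12) and 5 of 7 leukocyte markers (0.29) were above 0, and 0 of these genes were called in the *Myc* cohort. The summed proximal tubule level was 4947 to 8040 CPM in *Myc* KO and 5487 to 6782 CPM in *Myc* control kidneys, and the injury markers summed to 5486 to 6568 against 4710 to 6482 CPM. In the *Cxcl12* cohort 0 of 9 proximal tubule markers (median -0.25), 1 of 6 of the later nephron (-0.24), 5 of 6 injury markers (0.54) and 4 of 7 leukocyte markers (0.37) were above 0. Here the proximal tubule sum was 5748 to 6662 CPM in KO and 6663 to 8104 CPM in control kidneys, which nearly met. The injury sum was 4607 to 6002 against 2702 to 3896 CPM, so that neither pair of ranges overlapped. Of all single genes tested in this cohort, 4.96% had every KO kidney above and 4.72% every KO kidney below the controls. Abundant genes weigh most in such sums, with means over all kidneys of 1943 CPM for *Slc34a1* and 2368 CPM for *Clu*. The sum of all 9 listed leukocyte markers did not overlap either in this cohort, with 70.1 to 152 CPM in KO and 61.3 to 66.1 CPM in control kidneys, and in the *Myc* cohort it was 171 to 266 against 96.0 to 236 CPM. The largest values were -0.81 for the transporter *Slc5a12* (adjusted p = 0.13) and -0.64 for *Slc12a1* of the thick ascending limb (adjusted p = 0.47), both in the *Cxcl12* cohort, 1.74 for *S100a8* of neutrophils in the same cohort (adjusted p = 0.19) and -1.32 for the injury marker *Havcr1* in the *Myc* cohort (adjusted p = 0.12). The shares of all genes above 0 given for each cohort apply to these lists too. The 8 podocyte genes summed to 550.0 to 882 CPM in *Cxcl12* KO and to 604 to 641 CPM in *Cxcl12* control kidneys.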

How the data were processed

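RNA of 18 whole kidneys was sequenced. The deposited values are counts of reads on genes, without normalization. According to the submitters' processing notes, reads were trimmed with Trimmomatic 0.32, aligned to GRCm38 and counted with STAR 2.4.0. Counts without regard to strand were taken, and their 45706 Ensembl genes were named from GENCODE vM21. Counts of kidneys of one group differed beyond sampling noise in all 33 pairs (chi-square per degree of freedom 6.31 to 76.1).

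Within each cohort, low genes were removed with filterByExpr and libraries scaled by TMM, and the genotype was tested by quasi-likelihood (edgeR 4.0.16, R 4.3.3). The difference between the cohorts and between their controls was fitted over all 18 kidneys. Standard errors are the log2 fold change divided by the square root of F. Log2 CPM used a prior count of 2. No batch is labelled, so that the batch calibration of the study was not repeated. The pipeline was tested on simulated data. Summaries used pandas 2.3.3 (Python 3.11.15) and plots matplotlib 3.10.9.

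The 8 genes and the 11 lists were chosen with earlier results of these data known. Named from each list were genes with an adjusted p under 0.05 in either cohort (at most the 4 smallest) or otherwise the gene with the largest absolute change at a mean of at least 1 CPM. Alternatives were another normalization, no filter, limma voom 3.58.1, DESeq2 1.42.0, the columns of each strand, a replicate block, the kidneys with under 5% unmapped reads left out or as a covariate, 1 fit over all kidneys, and leaving out each kidney. Each sample is a kidney of another mouse as far as the labels tell.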

Additional observations from a re-analysis of the deposited data

Results flagged for a closer look

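Among 24 groups of 5 kidneys (8 genes in 3 groups, since *Cxcl12* controls number 3), 2 held a kidney far from the others, where chance flags about 1 in 20 by Dixon's test. *Nphs1* was at 36.87 CPM in *Cxcl12* KO 3 against 26.0 to 28.2 CPM in the other 4 kidneys, with a gap of 0.773 of the range on the log2 scale, on which both gaps were taken (critical value 0.71). In the same kidney all 8 podocyte genes lay above the mean of the group. *Wt1* was at 8.006 CPM in *Myc* control 4 against 12.5 to 14.2 CPM, with a gap of 0.784 of the range on the log2 scale. This kidney had the lowest value of its group for 5 of the 8 genes. Without it, the log2 fold change of *Wt1* in the *Myc* cohort was 0.12 in place of 0.24, and without *Cxcl12* KO 3 that of *Nphs1* in the *Cxcl12* cohort was -0.07 in place of 0.03.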

How the results depend on the processing

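No podocyte gene was called in the *Cxcl12* cohort, for the difference between the KO effects or between the controls under any alternative run. In the *Myc* cohort 2 of the 8 were called by DESeq2, *Nphs1* and *Plce1*, beside 1139 of all 14936 genes tested. Between 0 and 1 podocyte genes were called when 1 kidney was left out. The 1 was *Plce1* without *Myc* control 3, where 877 of 15108 genes were called. The number of all genes called was less stable. In the *Cxcl12* cohort it was 0, but 25 in 1 fit over all 18 kidneys, 9 with the reads of the first strand (column 3), 123 with the deeper kidneys as a covariate, 355 by DESeq2, 214 without a filter, 80 without the deeper kidneys and 0 to 15 with 1 kidney left out. In the *Myc* cohort it was 246, but 683, 954 and 1139 in 1 fit, with the covariate and by DESeq2, 8 without the deeper kidneys and 21 to 877 with 1 kidney left out. For the difference between the KO effects it was 11, but 4 and 7 with the reads of either strand, 133 with the covariate, 314 by DESeq2, 3 by limma voom, 44 without the deeper kidneys and 1 to 75 with 1 kidney left out. Between the controls it was 316, but 794 by DESeq2 and 49 to 611 with 1 kidney left out. The cause of these shifts was not tested.

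Replicate numbers of the labels were not taken as pairs. Deviations of equally numbered kidneys of a cohort correlated between -0.21 and 0.40 (r), and those of unequally numbered ones between -0.52 and 0.48. The highest value of equal numbers joined *Myc* KO 3 and *Myc* control 3, both deeply sequenced. These correlations do not settle whether kidneys were paired. With a replicate block 0 podocyte genes were called in any comparison, and 18 genes in the *Myc* cohort, 1 gene for the difference between the KO effects, 0 in the *Cxcl12* cohort and 322 between the controls. *Cxcl12* KO 4 and KO 5 have no control of the same number, so that under the block they did not contribute to the *Cxcl12* KO effect. The block values of this cohort thus rest on KO 1, 2 and 3 and the controls, and do not show the effect of blocking alone. Under this replicate block the log2 fold change of *Ptpro* in the *Cxcl12* cohort was 0.0211 in place of -0.18. The difference between the KO effects for *Magi2* was -0.0155 in place of 0.15. In the *Cxcl12* cohort the block also gave 0.54 in place of 0.33 for *Cdkn1c* (standard error 0.17, adjusted p = 0.25), 0.21 in place of 0.06 for *Podxl* and -0.0252 in place of -0.18 for *Magi2*.

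No podocyte gene was called in the main run of any comparison, so that every direction that turned belonged to a value not called. With column 3, *Nphs1* was at -0.0445 in the *Cxcl12* and *Magi2* at 0.0177 in the *Myc* cohort. Without the deeper kidneys *Ptpro* was at -0.0588 and *Cdkn1c* at -0.26 in the *Myc* cohort. With 1 kidney left out, the *Cxcl12* values ran from -0.0183 to 0.25 for *Plce1*, from -0.0179 to 0.19 for *Wt1*, from -0.0756 to 0.13 for *Podxl* and from -0.0679 to 0.0661 for *Nphs1* (-0.03 without *Cxcl12* control 1), and the *Myc* values from -0.0770 to 0.0448 for *Magi2* (0.03 without *Myc* KO 4 and 0.01 without *Myc* control 3 or 4) and from -0.0697 to 0.27 for *Cdkn1c* (-0.03 without *Myc* KO 3 and -0.0029 without *Myc* control 4). In the same way *Cdkn1c* ran from -0.40 to 0.0329 for the difference between the KO effects and *Ptpro* from -0.0166 to 0.17 between the controls. Without a change of direction, *Ptpro* lay between 0.0633 and 0.27 among *Myc* kidneys and between -0.31 and -0.0869 among *Cxcl12* kidneys, where *Magi2* ran from -0.23 to -0.0969, and *Plce1* from 0.12 to 0.40 for the difference between the KO effects. With 3 to 5 kidneys per group, differences smaller than the intervals given are not detectable.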
